A study of Danio rerio with 2 samples.

Results

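Vascular endothelial barcodes of the adult male zebrafish hypothalamus were examined in WT fish and in fish with both cholecystokinin ligand genes edited by CRISPR/Cas9 (CCK1/2-KO). A barcode, taken here as a cell, was a member if it had at least 500 unique molecular identifiers (UMIs), if at least 3 of 8 endothelial genes were detected in it with at least 5 UMIs in sum, and if it had no UMI of the lymphatic gene lyve1b. The 8 genes were flt1, kdrl, cdh5, she, tie1, egfl7, etsrp and plvapb. The rule took 583 of 20968 barcodes, with 289 members among 9364 WT barcodes and 294 among 11604 CCK1/2-KO barcodes. Members were thus selected on measured values of these genes, whose levels are a description and carry no test.

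Males of both groups were 6 months old, and per the design text the hypothalami of 30 fish were collected for each. The tissue was digested with trypsin in the presence of EDTA and DNase II, and 1 droplet library was made per genotype, so genotype, pool of fish, dissociation and library run cannot be told apart. There are no replicates, no test between genotypes was possible, and every interval below is a 95% interval for counting error only. Levels are UMIs summed over barcodes, divided by all UMIs of those barcodes and multiplied by 1000000 (CPM).

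Brain endothelium lines the vessels and is joined by tight junctions, and it carries nutrients from blood to brain through dedicated transporters. Its growth and resting state are set by vascular endothelial growth factor receptors, by angiopoietins acting on the Tie receptors, by Notch in arteries and by Wnt signals that maintain the barrier. In the hypothalamus, barrier vessels lie beside the fenestrated vessels of neuroendocrine regions, which are known for the protein encoded by plvapb in zebrafish.

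Members made up 3.09% (2.75 to 3.46) of WT barcodes and 2.53% (2.26 to 2.84) of CCK1/2-KO barcodes. The ratio of the shares was 0.821 (0.700 to 0.963). This ratio depended on barcodes that also carried mural cell genes: with members that passed a list of mural markers left out, an alternative added after the data were seen, 108 WT and 150 CCK1/2-KO members gave a ratio of 1.12 (0.877 to 1.43). A direction of the share between the genotypes was therefore not set by these data. Members were deep, with medians of 7975 (WT) and 8325.5 UMIs (CCK1/2-KO), while those of all other barcodes were 2694 and 2541.5. Their median mitochondrial share was 2.73% and 2.30%. The 2 libraries shared 52 barcode sequences, 6 of them among members of either library, and 0 sequences were members in both. A doublet caller marked 26 WT members (8.997%) and 36 CCK1/2-KO members (12.2%), and these were kept. It marked 7.44% and 9.20% of the other barcodes. Its rate was set at 0.8% per 1000 barcodes, so a higher share in the larger CCK1/2-KO library follows from the setting. Of the edited genes, ccka gave 53 UMIs over the WT members and 33 over the CCK1/2-KO members, with a log2 ratio of -0.69 (-1.36 to -0.03). In the other barcodes ccka was at 398 and 171 CPM. The second edited gene is not analysed here.

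The rule genes differed widely in level. The transcription factor gene etsrp, which specifies endothelium in the zebrafish embryo, was at 1814 CPM in WT members and 2805 CPM in CCK1/2-KO members. The receptor gene flt1 was at 1230 and 1347 CPM and the receptor gene kdrl at 931 and 891 CPM. VE-cadherin (cdh5) stood at 302 and 353 CPM, and egfl7, which encodes a secreted endothelial protein, at 266 and 330.2 CPM. Lower levels were found for the receptor gene tie1 (157 and 107 CPM), for she (40.5 and 71.4 CPM) and for plvapb (16.5 and 38.8 CPM). The most common genes were flt1, detected in 97.6% of members in each library, and kdrl, detected in 94.1% and 93.2%. In contrast, plvapb was detected in 26 and 49 members. The number of rule genes per member ran from 3 (38 WT and 32 CCK1/2-KO members) to 8 (6 and 13 members), and the summed rule UMIs from 5 to 299 in WT and from 5 to 268 in CCK1/2-KO.

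Members just inside the rule, with 3 genes or with 5 to 6 UMIs, numbered 45 in WT and 35 in CCK1/2-KO. They had a median of 8 and 9 rule UMIs and depths of 2715 and 1882 UMIs. Just outside it lay 15 and 18 barcodes with 3 or more genes but 3 to 4 UMIs, with median depths of 1332 and 989 UMIs, and 15 in each library with 2 genes and 5 or more UMIs. Another 14 WT and 29 CCK1/2-KO barcodes met the gene rule but held lyve1b and were left out. The further endothelial identity genes that the rule did not use summed to 4989 and 4465 CPM just inside the rule and to 3494 and 1240 CPM in the outside set of 3 to 4 UMIs. They summed to 561 and 544 CPM over all other barcodes.

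The label of vascular endothelium held on genes outside the rule. Of 21 listed endothelial identity genes with at least 50 member UMIs, 18 were at least 2-fold above the other barcodes in both libraries and 0 at least 2-fold below, where 15.7% of all 8097 features with at least 50 member UMIs lay above and 18.3% below. Lymphatic genes were low, although flt4 and stab2 were at about the level of the other WT barcodes (8.36 and 11.2 CPM): prox1a was at 0.988 and 3.62 CPM, stab1 at 3.62 and 2.63 CPM, flt4 at 9.23 and 6.91 CPM and stab2 at 11.2 and 5.26 CPM, and 0 members passed the lymphatic list. The lymphatic list includes lyve1b, which the rule required to be absent, so that count of 0 was partly fixed by the selection. Since members were chosen on genes that travel with the identity genes, the comparison describes the cells and tests nothing.

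The leading genes of the profile, by the smaller of the folds over other barcodes in the 2 libraries, showed what else these cells share. The chemokine gene cxcl12b, a ligand of Cxcr4 receptors, stood at 3794 CPM in WT members against 35.5 CPM in other WT barcodes, and at 5646 against 37.8 CPM in CCK1/2-KO. BCL6B, a capitalised symbol, as for EPAS1, ANGPT4, PDGFD and CGNL1 below, that follows the mammalian gene and stands for a transcriptional repressor, was at 820 and 814 CPM in members and 2.92 and 3.98 CPM in others. It was found in 50.5% and 41.2% of members only, whereas rgcc, a regulator of the cell cycle, was found in 99.7% and 97.6%. The most abundant genes of the set were akap12b (5345 and 8168 CPM), which encodes a scaffold for protein kinase A, and rgcc (5282 and 7328 CPM).

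The same set held transcription factor genes of endothelium: klf2a and klf2b, known to respond to blood flow, sox7, and EPAS1, which encodes the hypoxia-inducible factor HIF-2 alpha. Their levels were 782 and 783 CPM for klf2a, 748 and 713 CPM for klf2b, 850.4 and 703 CPM for sox7, and 604 and 808 CPM for EPAS1. Receptors and receptor partners were acvrl1, a BMP receptor of arterial endothelium (456 and 552 CPM), ptprb, a phosphatase that acts on Tie2 (673 and 549 CPM), adgrl4, an adhesion receptor (301 and 284 CPM), and tnfrsf9a (1855 and 2777 CPM). Transport was represented by slco1d1, an organic anion transporter (741 and 730.4 CPM), and by slc16a1a, a monocarboxylate transporter (397 and 1057 CPM). The others were anxa2a, ncam3, icn, adamts9, rasip1, krt94, wu:fj16a03, si:dkey-23a13.2, si:ch211-156j16.1, si:ch211-250c4.4 and si:dkey-126g1.9. Over the 25, the smaller of the log2 folds over other barcodes ran from 5.13 to 6.55 after 5 CPM was added to each level.

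**Figure D1:**
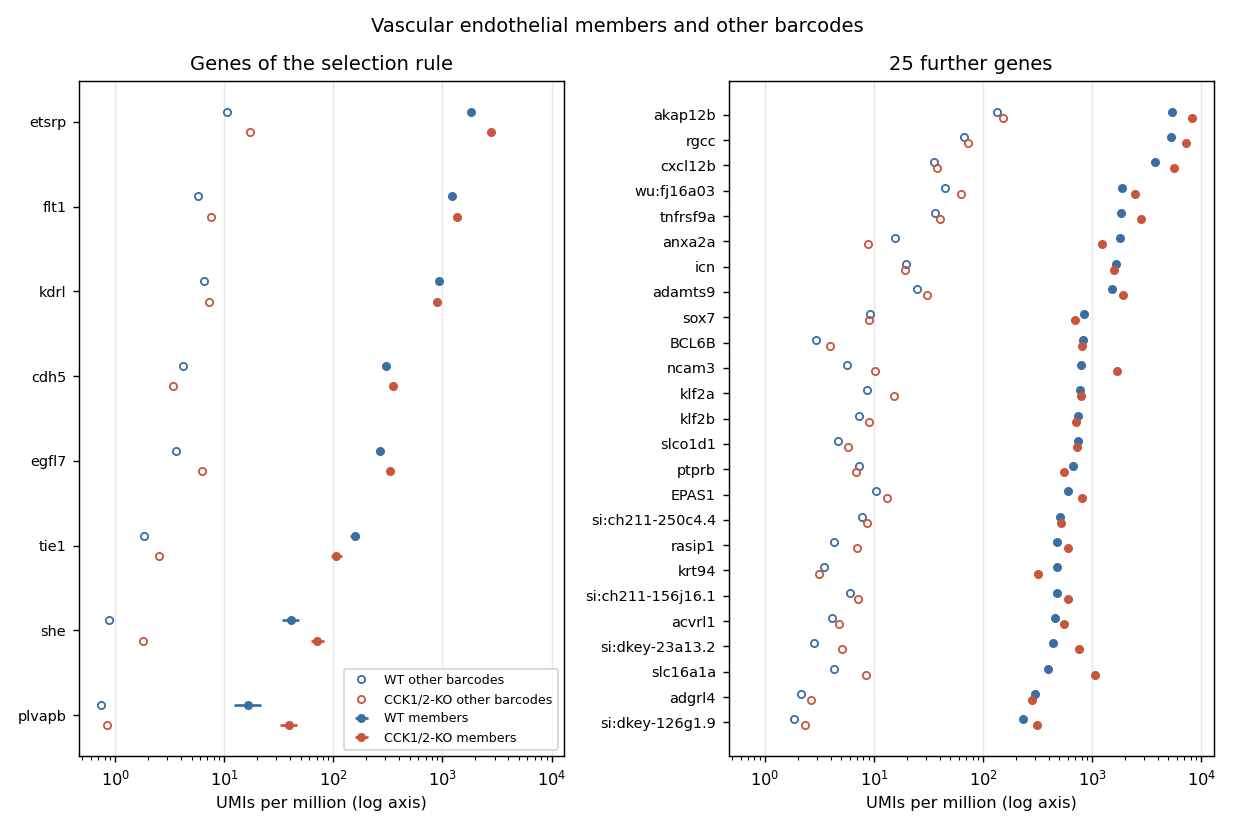
Levels in CPM (log axis) of the 8 rule genes and of the 25 leading genes of the profile in WT (blue) and CCK1/2-KO (red); filled points are members with exact Poisson intervals, open points all other barcodes of the same library. In each row the members stand above the other barcodes, from 16.5 against 0.739 CPM for plvapb in WT to 8168 against 153 CPM for akap12b in CCK1/2-KO.

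Barrier genes were a broad part of the profile. Of 22 listed transport genes with at least 50 member UMIs, 14 were at least 2-fold above other barcodes in both libraries and 3 at least 2-fold below. Of all 8097 features, 15.7% lay above and 18.3% below. The amino acid transporter gene slc38a3a was at 1602 and 1671 CPM and found in 97.6% of members in each library. The efflux pumps followed with abcc4 (494 and 484 CPM), abcc2 (271 and 173 CPM), abcb4 (102 and 88.8 CPM) and abcg2a (69.9 and 89.8 CPM). Of the pair of mfsd2a genes, whose mammalian counterpart carries lysophospholipids into the brain, mfsd2ab was at 226 and 254 CPM while mfsd2aa had 8 and 18 UMIs in all members. The tight junction gene cldn5a was at 464 and 487 CPM, against 11.3 and 13.3 CPM in others. Cells with fenestral plvapb were few: 10 WT and 26 CCK1/2-KO members had 2 or more UMIs of it.

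Many members also carried genes of neighbouring cells. A list of 12 mural cell markers was passed (at least 3 genes and 5 UMIs) by 62.6% of WT and 49.0% of CCK1/2-KO members, against 7.89% and 6.63% of other barcodes, and these members were deeper, with medians of 11307 and 12588.5 UMIs. The summed level of the list was 3422 CPM in WT and 2161 CPM in CCK1/2-KO members, all 12 genes were lower in CCK1/2-KO, 11 of them beyond counting error, and 0 were without a UMI. Among these markers, pdgfrb was at 553 and 328 CPM, rgs5a at 1134 and 636 CPM and the smooth muscle gene acta2 at 151 and 56.9 CPM. The astroglial list was passed by 61.9% and 55.8% of members, against 41.4% and 37.8% of other barcodes. Summed over other barcodes, this list was at 7181 and 7125 CPM, above its level in members. The neuronal list was passed by 24 and 20 members and the macrophage list by 7 and 9. These were smaller shares than in other barcodes, where 47.1% and 46.0% passed the neuronal list and 6.17% and 5.22% the macrophage list. The astroglial list summed to 1458 and 2187 CPM, with 5 of its 8 genes higher and 1 lower in CCK1/2-KO beyond counting error. Of these sums, gja1b alone gave 854 and 1340 CPM, above its level in other barcodes (747 and 914 CPM). In CCK1/2-KO, 3 members held 64.7% of the UMIs of slc1a2b and 61.9% of those of fabp7a, and without the 3 highest members per library their log2 ratios, with 5 CPM added, were -0.21 and 0.12, where all members gave 0.87 for slc1a2b and a ratio past 2-fold for fabp7a. Haemoglobin and other red cell genes summed to 28270.5 CPM in WT and 13365 CPM in CCK1/2-KO members. Most of both sums was hbaa1 (20584 and 10866 CPM), with 25.3% and 33.1% of its UMIs in 3 members. The median haemoglobin share of a member went the other way, at 0.443% in WT and 0.744% in CCK1/2-KO. The part of all these neighbouring cell genes in the results was not tested, except that values without members passing the mural list are given where they bear.

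Between the libraries, 162 of 8097 features (2.00%) were at least 2-fold higher in CCK1/2-KO members and 117 (1.44%) at least 2-fold lower, 3.45% in all, on levels to which 5 CPM was added. The median log2 ratio over all of them was -0.002. Past counting error alone, 19.1% were higher and 18.0% lower, so an interval that excludes 0 was common among all features. The balance of directions was not fixed: without the 3 highest members per feature and library 103 were higher and 130 lower, with the mean of each member's CPM 134 and 216, and with doublet-marked barcodes removed 118 and 150. Of the 279 features, 23 were past 2-fold in the same direction in the other barcodes too. 134 passed all conditions set for naming a gene, namely 2-fold without the 3 highest members, 10 or more members with a UMI, and a level at or above that of the other barcodes. Of these, 54 were higher and 80 lower in CCK1/2-KO. Log2 ratios below are CCK1/2-KO over WT, without the added 5 CPM unless said, each with an exact conditional interval.

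**Figure D2:**
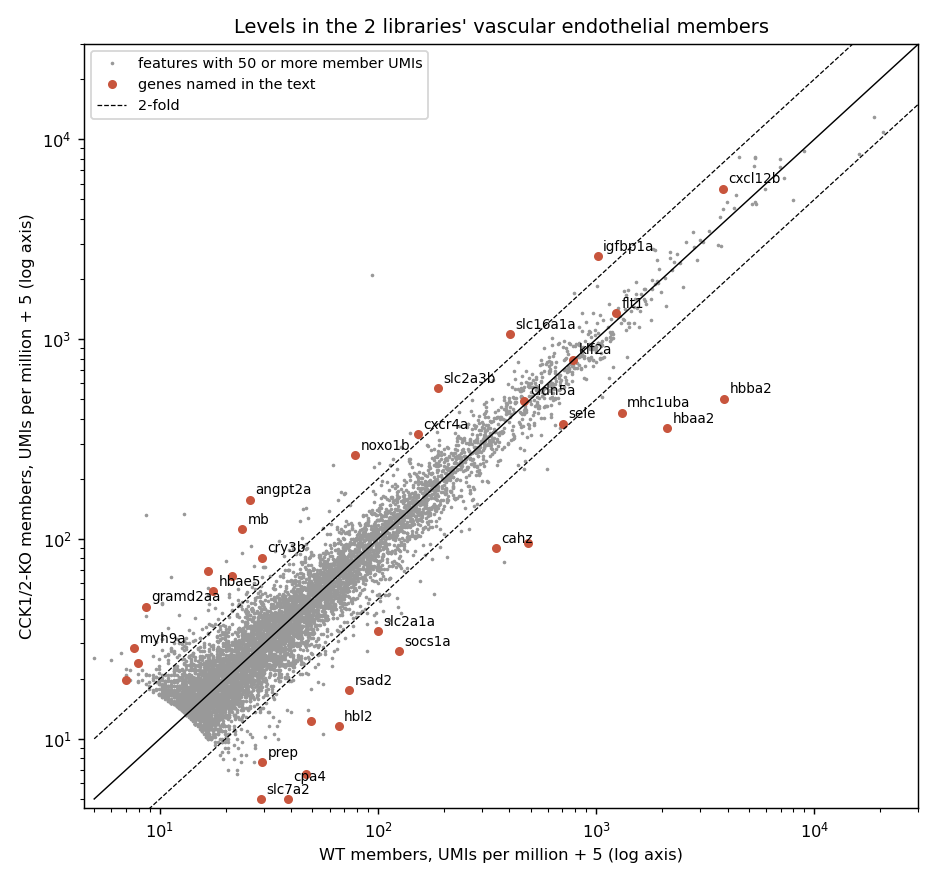
Levels in WT members (x axis) and CCK1/2-KO members (y axis), as CPM + 5 on log axes, for 8097 features with at least 50 member UMIs (grey) and genes named here (red); solid and dashed lines mark equality and 2-fold. Most features lie within the dashed lines, with angpt2a, slc2a3b, slc16a1a and igfbp1a above them and slc2a1a, socs1a, mhc1uba, hbba2 and hbaa2 below.

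With 5 CPM added, the highest ratio among the named genes was that of angpt2a (ENSDARG00000014946), which encodes angiopoietin-2, a ligand of the Tie2 receptor known in mammals for loosening resting vessels. It had 63 UMIs in 22 WT members and 462 UMIs in 88 CCK1/2-KO members, or 20.8 CPM (16.0 to 26.6) and 152 CPM (138 to 166), a log2 ratio of 2.87 (2.49 to 3.28). The CCK1/2-KO library was the high one, with a UMI in 7.61% (4.83 to 11.3) of WT and 29.9% (24.8 to 35.5) of CCK1/2-KO members and up to 21 and 46 UMIs in 1 member. Thinned to 1000 UMIs per cell, the shares were 1.29% and 10.7%. In red cell barcodes, which should lack the gene and had median depths of 1145 and 1082 UMIs, 0 of 892 in WT (a floor of 3 counts is 0.336%, the upper Clopper-Pearson bound 0.413%) and 1 of 1262 in CCK1/2-KO had a UMI. In members without the mural list the levels were 47.9 and 155 CPM, and with 5 CPM added the log2 ratio was 1.60 there and 2.61 in all members.

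Genes of sugar and lactate transport differed in both directions. The glucose transporter gene slc2a3b (ENSDARG00000037861) summed to 555 and 1710 UMIs, 183 CPM (168 to 199) and 562 CPM (536 to 590), a log2 ratio of 1.62 (1.48 to 1.76). The share of members with a UMI was 34.6% and 60.9% (12.2% and 30.5% after thinning), against 2.58% and 3.80% of red cell barcodes (1.41% and 2.66%). The monocarboxylate transporter gene slc16a1a (ENSDARG00000016963) had 1204 and 3214 UMIs, 397 CPM (375 to 420) and 1057 CPM (1021 to 1094), a log2 ratio of 1.41 (1.32 to 1.51). CCK1/2-KO members were high in this gene throughout: its median was 2 UMIs per WT member and 8 per CCK1/2-KO member, and it was found in 72.7% and 92.2% (30.9% and 59.2% after thinning), against 0.448% and 1.66% of red cell barcodes.

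In contrast, the barrier glucose transporter gene slc2a1a was lower in CCK1/2-KO, with 287 UMIs in 111 WT members and 90 UMIs in 59 CCK1/2-KO members. Its levels were 94.6 and 29.6 CPM and its log2 ratio -1.68 (-2.03 to -1.33). The highest WT member had 30 UMIs and the highest CCK1/2-KO member 4. All 3 ratios were past 2-fold in members without the mural list too, where slc2a1a was at 128 and 32.8 CPM, slc16a1a at 597 and 1342 CPM, and slc2a3b at 243 and 655 CPM. With 5 CPM added, the log2 ratios in mural barcodes were small, at 0.10 for slc2a3b, 0.47 for slc16a1a and -0.05 for slc2a1a. In the remaining barcodes they were 0.19, 0.45 and -0.04. The ratios of slc2a3b and slc16a1a were not particular to the members. In the 14 WT and 29 CCK1/2-KO endothelial barcodes with lyve1b they were 4.63 and 4.44, on few cells. The WT barcodes of this set held 116918 UMIs, so a single UMI exceeds the 5 CPM added, which sets the size of such ratios. That of slc2a1a was -1.44 there, a value at the floor, and its direction in this set was not settled.

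The other 20 listed transport genes stayed within 2-fold. Over the 22, the median log2 ratio was 0.07, and 7 were higher and 4 lower beyond counting error (19.1% and 18.0% of all features). The log2 ratio was 0.06 (0.00 to 0.12) for slc38a3a, 0.17 (0.02 to 0.32) for mfsd2ab and -0.20 (-0.44 to 0.04) for abcb4. Larger differences within 2-fold were those of slc7a5, which carries large neutral amino acids, at 28.3 and 46.4 CPM, and of abcc2, at -0.65 (-0.81 to -0.49). Among 14 junction genes 0 were past 2-fold and 3 were beyond counting error in each direction. The log2 ratio of cldn5a was 0.07 (-0.04 to 0.18), those of jam2a, a junctional adhesion molecule, and CGNL1, a junction scaffold, were -0.60 and -0.56, and that of gja4, a gap junction gene, was 1.18 on 18 and 41 UMIs and 0.76 with 5 CPM added, the scale of the 2-fold limit. Of 16 genes of blood flow 0 were past 2-fold and the median was 0.00, with klf2a at 0.00 (-0.08 to 0.09) and klf2b at -0.07 (-0.15 to 0.02).

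**Figure D3:**
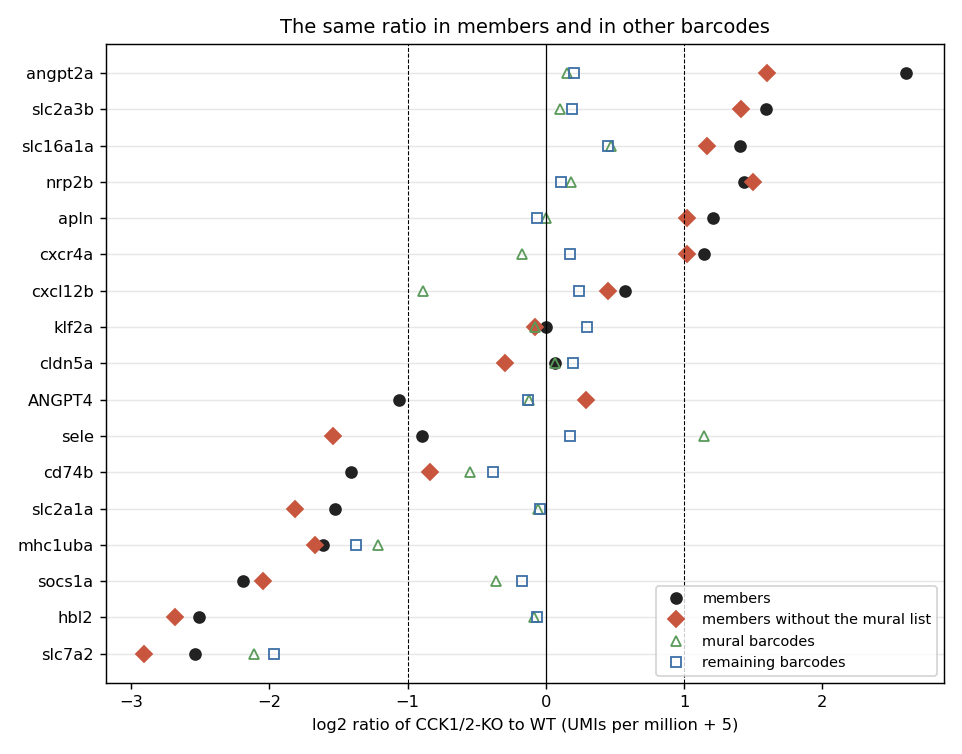
Log2 ratio of CCK1/2-KO to WT (CPM + 5) of 17 genes in members (black), members without the mural list (red), mural barcodes (green) and remaining barcodes (blue); dashed lines mark 2-fold. The ratios of angpt2a, slc2a3b, slc16a1a, slc2a1a, socs1a and hbl2 are past 2-fold in both sets of members and within it in both other sets. slc7a2 and mhc1uba are low in all 4, and ANGPT4 changes sign without the mural list, where its levels are below the 5 CPM added. Endothelial barcodes with lyve1b are not shown.

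By number, the list of VEGF and angiopoietin genes had the most genes past 2-fold, 5 higher and 1 lower of 15. Over all features 2.00% were higher and 1.44% lower, and the shorter retinoic acid list had 3 higher and 1 lower of 6. The median log2 ratio of the VEGF and angiopoietin list was 0.38. It ran from -0.09 to 0.41 over the alternatives, so its direction was not stable. Higher besides angpt2a were nrp2b, a semaphorin and VEGF co-receptor (22.1 and 68.1 CPM), the ligand genes apln (35.2 and 88.1 CPM), angpt1 (15.8 and 46.0 CPM) and vegfc (2.97 and 16.1 CPM). Of these 4 only nrp2b stayed past 2-fold without the 3 highest members of each library, with 5 CPM added (1.42), while apln came to 0.92, angpt1 to 0.65 and vegfc to 0.50. For vegfc, 3 members held 75.5% of the CCK1/2-KO UMIs. The level of nrp2b in members was below that in other barcodes, which had 246 and 268 CPM. ANGPT4 was lower in CCK1/2-KO (72.2 and 31.9 CPM). In members without the mural list it was nearly absent (1.55 and 2.99 CPM), below the 5 CPM added, and no direction was set there. Of the receptors, kdr had a log2 ratio of -0.04 (-0.27 to 0.20), and tek, which encodes Tie2, -0.39 (-0.67 to -0.12). The ligand gene vegfaa was at 590.4 and 458 CPM.

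Of the chemokine signalling genes, cxcr4a and cxcl12b stood higher in CCK1/2-KO. cxcr4a, a receptor for Cxcl12 ligands, had 446 UMIs in 96 WT members and 1004 UMIs in 147 CCK1/2-KO members, 147 and 330.2 CPM, with a log2 ratio of 1.17 (1.01 to 1.33). Thinned shares of members with a UMI were 11.1% and 20.3%, against 0.492% and 0.460% of red cell barcodes. Without members carrying markers of another class, which left 63 and 81, its log2 ratio was 0.35 with 5 CPM added. cxcl12b had a ratio of 0.57 (0.54 to 0.61), while the scavenging receptor gene ackr3a was at -0.45 (-0.60 to -0.30).

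Over all features, 19.1% were higher and 18.0% lower beyond counting error, which the counts of the following lists stand beside. Of 17 Notch and arterial genes 0 were past 2-fold, 7 were higher and 2 lower beyond counting error, and the median was 0.09. The arterial ligand gene efnb2a was at 98.5 and 156 CPM and the Notch ligand gene dll4 at 209 and 222 CPM. The 7 venous genes had a median of -0.29 with 0 past 2-fold. Genes of BMP and TGF-beta signalling had a median of 0.22, with 9 of 18 higher and 2 lower beyond counting error. Among them were the receptor gene bmpr2b (98.5 and 181 CPM), the signal transducer smad9 (88.3 and 130.2 CPM) and the target gene id1 (145 and 207 CPM), and 0 were past 2-fold. In members without the mural list the log2 ratio of id1 was -0.20 with 5 CPM added, against 0.50 in all members. Basement membrane and integrin genes leaned the other way, with 9 of 17 lower and 2 higher beyond counting error and a median of -0.12. The largest of these was itga5, a fibronectin receptor subunit, at 109 and 58.9 CPM, whose log2 ratio turned from -0.83 to 1.24 (5 CPM added) without members carrying markers of another class. The median of the basement membrane and integrin list ran from -0.26 to 0.18 over the alternatives, so its direction was not stable. Mural marker levels moved with this list, and their part in it was not tested. Of the 12 Wnt genes, 2 were higher and 4 lower beyond counting error. Their median of 0.07 ran from -0.72 to 0.07 over the alternatives, so its direction was not stable. Among them lef1, a target and effector of the pathway, was at -0.38 (-0.51 to -0.26).

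**Figure D4:**
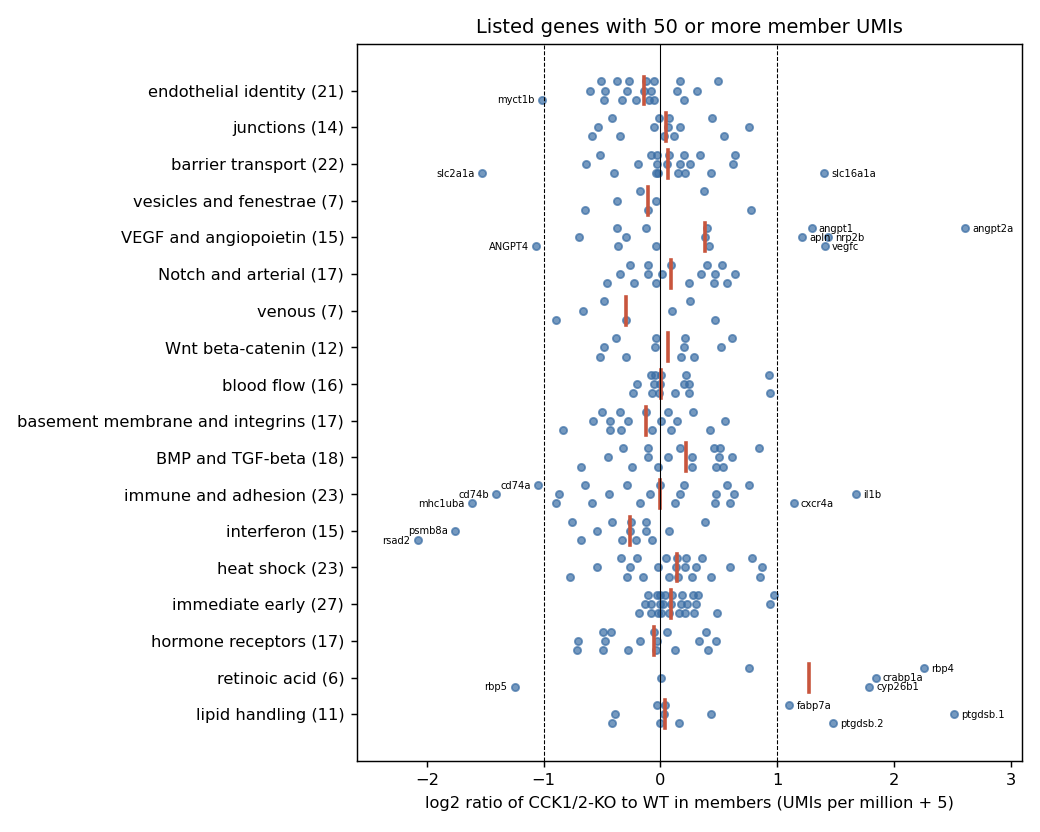
Log2 ratio of CCK1/2-KO to WT in members (CPM + 5) of each listed gene with at least 50 member UMIs, by list, with the number of genes in brackets; red bars are list medians, dashed lines 2-fold, and genes past 2-fold are labelled. Medians lie between -0.29 and 0.38 except for the 6 retinoic acid genes at 1.27, and labelled genes are concentrated in the VEGF and angiopoietin, immune, retinoic acid and lipid lists.

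The largest differences towards WT were not all endothelial. The haemoglobin genes hbba2 (3841 and 498 CPM) and hbaa2 (2113 and 355 CPM) and the red cell carbonic anhydrase cahz (341 and 84.8 CPM) were lower in CCK1/2-KO members, and 3 members held 86.5% of the CCK1/2-KO UMIs of hbaa2. In other barcodes the log2 ratios of these 3 were -1.26, -1.84 and -0.92. si:ch211-103n10.5 was at 483 and 90.4 CPM, with a ratio of -1.46 in others. Of the 9 red cell genes, 7 were lower and 2 higher in CCK1/2-KO members beyond counting error. The embryonic-type globin gene hbae5 went the other way, at 12.5 and 49.7 CPM. In each library 3 members held most of its UMIs, 94.7% in WT and 58.9% in CCK1/2-KO. It was also higher in the other CCK1/2-KO barcodes (4.68 and 36.3 CPM).

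Genes on the low side that stood well above the other barcodes were led by hbl2 and socs1a. socs1a, a suppressor of cytokine signalling, had 365 UMIs in 103 WT members and 68 UMIs in 34 CCK1/2-KO members, 120.3 and 22.4 CPM, and a log2 ratio of -2.43 (-2.82 to -2.05). Outside the members it was at 5.87 and 4.56 CPM. The lectin gene hbl2 was at 61.0 and 6.58 CPM, in 82 and 16 members, with a ratio of -3.21 (-3.96 to -2.54), and below 1 CPM in other barcodes of both libraries. Thinned shares were 9.90% and 2.27% of members for socs1a and 6.33% and 0.639% for hbl2, against 0 WT and 1 CCK1/2-KO red cell barcode with a UMI of socs1a and 1 WT and 0 CCK1/2-KO with one of hbl2.

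A pair of genes had no UMI in CCK1/2-KO members. The carboxypeptidase gene cpa4 had 102 UMIs in 14 WT members, 62.7% of them in 3 members. Its WT level was 34.1 times a floor of 3 counts in the CCK1/2-KO library, and the interval of its log2 ratio ended at -4.77. The cationic amino acid transporter gene slc7a2 had 73 UMIs in 38 WT members, a level 24.4 times the same floor, with an interval that ended at -4.27. It was also nearly without UMIs in the other CCK1/2-KO barcodes, with 7 UMIs against 725 in WT, as was ENSDARG00000113960 with 9 against 659 there and 5 against 126 in members. Further features on the low side were rsad2, an antiviral gene (68.9 and 12.5 CPM), zgc:103438 (44.1 and 7.23 CPM) and prep, a peptidase (24.4 and 2.63 CPM). In members without the mural list the log2 ratio of rsad2 was only -0.14 with 5 CPM added. It was also lower in the other CCK1/2-KO barcodes (41.3 and 12.6 CPM).

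On the high side, mb, which encodes the oxygen-binding protein myoglobin, had 57 UMIs in 9 WT members and 324 in 24 CCK1/2-KO members, with 80.7% and 56.5% in 3 members. The oxidase organiser gene noxo1b was at 73.8 and 258 CPM in 36 and 57 members. For si:dkey-78l4.5 the levels were 11.5 and 64.1 CPM. Lower levels were found for gramd2aa (3.62 and 40.8 CPM), myh9a, a non-muscle myosin (2.64 and 23.3 CPM), si:dkey-240n22.2 (16.5 and 60.2 CPM), ENSDARG00000051710 (2.97 and 19.1 CPM) and ENSDARG00000108060 (1.98 and 14.8 CPM). Other barcodes were also higher in CCK1/2-KO for si:dkey-240n22.2 (9.69 and 28.5 CPM) and ENSDARG00000108060 (4.66 and 13.75 CPM). The clock gene cry3b was at 24.4 and 75.6 CPM, and it was also higher in other barcodes (27.6 and 59.6 CPM). igfbp1a, a binding protein of insulin-like growth factors that was chosen after its values were seen, had the most UMIs of this kind: 1011 CPM in WT and 2601 CPM in CCK1/2-KO members, a log2 ratio of 1.36 (1.30 to 1.42) against -0.13 in other barcodes.

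The immune and adhesion genes past 2-fold lower in CCK1/2-KO members were mhc1uba, cd74a and cd74b. mhc1uba, a class I gene, summed to 3960 and 1285 UMIs, 1305 and 423 CPM, with a log2 ratio of -1.63 (-1.72 to -1.54) and of -1.37 in other barcodes. It belongs to a family of near-identical, polymorphic genes, for which counts on one reference are uncertain. b2m, the shared light chain of class I molecules, was at 3619 and 2965 CPM, and mhc1zba at 442 and 281 CPM. The invariant chain genes cd74a (1054 and 508 CPM) and cd74b (590.4 and 219 CPM) were -1.05 and -1.43 in members and -0.08 and -0.37 in other barcodes. In members without the mural list these 2 came to -0.57 and -0.84 with 5 CPM added. Among 15 interferon genes, 8 were lower and 1 higher beyond counting error (18.0% and 19.1% of all features). Of these 15 genes 2 were past 2-fold, rsad2 and the immunoproteasome gene psmb8a (17.5 and 1.64 CPM). The median was -0.26 in members and -0.40 in other barcodes. In members it ran from -0.32 to 0.20 over the alternatives, so its direction was not stable. Of the 23 immune and adhesion genes, 11 were higher and 9 lower, with a median of -0.002. The cytokine gene il1b had 14 and 78 UMIs, and its level was 104 and 196 CPM outside the members.

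Several retinoic acid and lipid genes past 2-fold were at lower levels in members than in other barcodes. cyp26b1, which degrades retinoic acid, was at 11.5 and 52.0 CPM in members but at 210 and 660.0 CPM in other barcodes, with 63.3% of the CCK1/2-KO UMIs in 3 members. rbp4 had 110 UMIs in 11 CCK1/2-KO members and a ratio of 0.13 without the 3 highest members per library, with 5 CPM added. For ptgdsb.1, which encodes a prostaglandin synthase, the levels were 6.26 and 59.2 CPM against 131 and 245 CPM in others. The astroglial gene fabp7a was at 113 and 248 CPM in members, and at 1579 and 1451 CPM outside. rbp5 was the one retinoic acid gene past 2-fold lower (15.5 and 3.62 CPM). Of 27 immediate early genes, 15 were higher and 4 lower beyond counting error (19.1% and 18.0% of all features), and 0 were past 2-fold. Their median of 0.09 ran from -0.46 to 0.12 over the alternatives, so its direction was not stable. Among 23 heat shock genes the median was 0.14 (0.25 in other barcodes), hsp70l being higher in members and others alike (log2 ratios of 0.85 and 0.86) and hspb1 lower in members (1382 and 807 CPM) but not in others (90.2 and 99.9 CPM). Hormone receptor genes had a median of -0.06 over 17, with 0 past 2-fold, and the 2 cell cycle genes with enough UMIs stayed within 2-fold.

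Among the members, sele marked a group in both libraries. It encodes E-selectin, an adhesion molecule that captures leukocytes, best known from activated venules. The split was chosen after the values were seen, and it is described without a test. sele had 2 or more UMIs in 64 WT (22.1%) and 48 CCK1/2-KO members (16.3%) and none in 209 and 228, with the median depth of the former at 12953 and 15250.5 UMIs and of the latter at 7029 and 7655.5. BCL6B was at 1940 CPM with sele and 191 CPM without in WT, and at 2685 and 153 CPM in CCK1/2-KO. The venous transcription factor gene nr2f2 was at 146 and 55.2 CPM in WT and 138 and 81.2 CPM in CCK1/2-KO, and vwf, the von Willebrand factor gene, at 43.9 and 6.91 CPM and 39.9 and 4.77 CPM. Of 6 venous genes besides sele, 1, vwf, was at least 2-fold higher with sele in both libraries and 0 at least 2-fold lower. tie1, a rule gene, was also higher with sele (269 and 95.6 CPM in WT).

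Of 17 Notch and arterial genes, 2 were at least 2-fold lower with sele in both libraries, cxcl12b and efnb2a, and 0 at least 2-fold higher. cxcl12b was at 499.95 CPM with sele and 5773 CPM without in WT, and at 1630 and 7105 CPM in CCK1/2-KO. The arterial gene efnb2a was at 47.7 and 126 CPM in WT and 69.1 and 188 CPM in CCK1/2-KO, and cxcr4a at 59.1 and 202 CPM and at 102 and 418 CPM. The Notch target her4.1 was at 27.7 and 125 CPM and at 35.9 and 310.4 CPM. acta2, a mural marker, had no UMI with sele in WT and 2.66 CPM in CCK1/2-KO, against 237 and 72.6 CPM without. In all, 56 of 8097 features were at least 2-fold higher with sele in both libraries and 197 at least 2-fold lower. Members with sele were deeper, and the part of depth in these counts was not tested. sele itself was at 697 and 372 CPM over all members, a log2 ratio of -0.90 (-1.01 to -0.80), with a single WT member at 229 UMIs. With 5 CPM added, its log2 ratio was -1.54 in members without the mural list but 0.63 without members carrying markers of another class, so its direction was not stable.

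**Figure D5:**
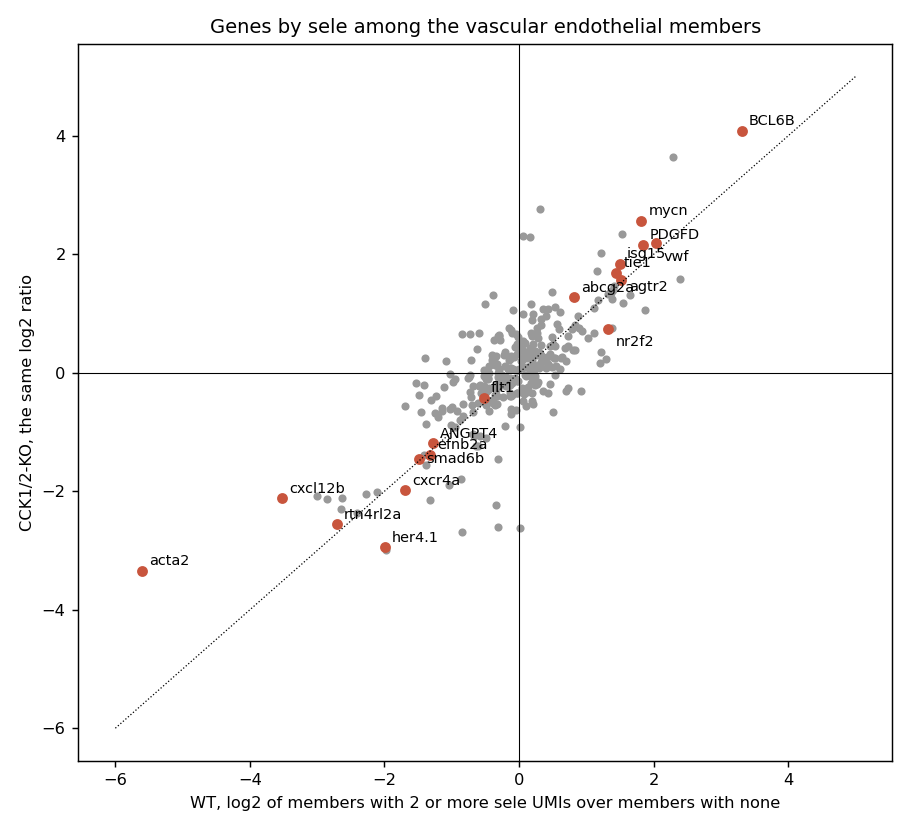
Log2 ratio (CPM + 5) of members with 2 or more sele UMIs over members with none, in WT (x axis) and CCK1/2-KO (y axis), for the listed genes and for the genes at either end of the ranking over both libraries; sele is left out and the dotted line marks equality. BCL6B, mycn, vwf and PDGFD lie at the upper right and acta2, cxcl12b, rtn4rl2a and her4.1 at the lower left, so the same genes head both libraries, as the ranking on both fixes.

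Members were also split by angpt2a, on another cut-off and other group sizes than for sele, so the counts of features are not comparable. Splitting members by 1 or more UMIs of angpt2a, again after its values were seen, left 9 of 8097 features at least 2-fold higher with angpt2a in both libraries. Another 76 were at least 2-fold lower, on 22 WT and 88 CCK1/2-KO members with angpt2a. igfbp1a was at 2034 CPM with angpt2a and 870 CPM without in WT, and at 4100 and 1708 CPM in CCK1/2-KO. Also higher with angpt2a, but not 2-fold in both libraries with 5 CPM added and so not among the 9, were ero1a and adma. The oxidoreductase gene ero1a was at 51.5 and 25.5 CPM and at 116 and 61.4 CPM. The gene adma, which encodes the vasodilator adrenomedullin, was at 54.2 and 31.1 CPM and at 97.8 and 45.7 CPM. rtn4rl2a was lower with angpt2a in both (5.43 and 89.6 CPM in WT, 11.5 and 54.6 CPM in CCK1/2-KO). Of CCK1/2-KO members with angpt2a, 94.3% had slc16a1a and 73.9% slc2a3b, against 91.3% and 55.3% of those without. Members with angpt2a were deeper (medians of 12718 against 7133 UMIs in WT and 11603 against 7473 in CCK1/2-KO), which bears on such shares.

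Splitting members by plvapb, with 2 or more UMIs against none, left 23 of 8097 features at least 2-fold higher in both libraries and 381 at least 2-fold lower, on 10 WT and 26 CCK1/2-KO members. smad6b, an inhibitor of BMP signalling, had a log2 ratio of 1.11 and 1.12 (5 CPM added), and cldn5a of 0.15 and 0.24. With members carrying markers of another class left out, 4 and 5 members had plvapb and smad6b was at -2.34 and 1.52, so no pattern of plvapb cells was set at this depth. mfsd2aa was found in 6 and 13 members, too few to describe.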

How the data were processed

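For each library the authors deposited whole-number UMI counts per Ensembl gene and barcode. Per the submitters' notes they used Cell Ranger, GRCz11 and Seurat; the annotation release is not given in the sources used here, and no normalized or clustered values were used. Of 32057 features, 11398 had no name in the files, and 8368 of these were named from an identifier table. Features were matched to list symbols by name, in capitals (16 symbols) or by a synonym (6), 456 of 493 in all. Members and lists were chosen with earlier results of these data known. UMIs were summed over barcodes with Python 3 code (scanpy, SciPy), scaled to CPM and compared as ratios. Intervals are exact Poisson (levels), conditional binomial (ratios), Clopper-Pearson (shares) and Katz (ratio of shares), all at 95%. They cover counting error only, treat each UMI as a separate draw and are too narrow where a few cells hold many UMIs. Code was tested on simulated data with known ratios. The libraries held 51744329 and 58095515 UMIs, of which 3035112 and 3040799 lay in members.

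For the profile, the 25 features with the largest smaller fold of the 2 libraries were named, among those with 50 or more member UMIs and a UMI in at least 10% of members in each. For the genotypes, the 12 highest and 12 lowest by log2 ratio of CPM + 5 were named, under the conditions given with their counts; rule genes and listed genes were also named. Shares of cells were given as found and as the share expected when each cell is thinned to 1000 UMIs, shallower members (4 in WT, 7 in CCK1/2-KO) being left out. Doublets were scored with Scrublet at 0.8% per 1000 barcodes and kept. Barcodes are 20 bases long. Red cell barcodes passed the red cell list with over 20% haemoglobin UMIs. Alternatives were other added CPM, UMI minimums, scaling, depth and rule limits, removal of doublets, of members with another class's markers and of the 3 highest members, and per-cell means. Sequences and coordinates were not used here.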

Additional observations from a re-analysis of the deposited data

How the results depend on the processing

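No paired analysis was possible because each genotype has 1 library. The ratio of member shares, 0.821, turned to 1.04 without members carrying markers of another class and to 1.12 without those passing the mural list; it was 0.807 to 0.869 under the other 5 alternatives. The number of features past 2-fold, 279, was 80 with 20 CPM added, 505 with 1 CPM added, 106 at a minimum of 200 member UMIs and 145 without members carrying markers of another class, which left 1721 features to compare; it was 233 to 375 under the other 8. The share of higher among these, 58.1%, was 44.2% without the 3 highest members, 44.0% without doublet-marked barcodes and 38.3% with per-cell means. Of 46 named or listed genes past 2-fold, 17 stayed so under all 9 alternatives and 40 kept their direction. Those that turned were plvapb (-0.076) and fabp7a (-0.53) without members carrying markers of another class, fabp7a (-0.25) with per-cell means and ANGPT4 (0.29) without the mural list. The levels of ANGPT4 were below the added 5 CPM in that last set. The ratios of cpa4, rbp4 and ENSDARG00000108060 were 0.00 without members carrying markers of another class. Of the 269 named or listed genes within 2-fold, 126 did not keep their direction under every alternative, among them sele, id1 and itga5. Several list medians changed sign over the alternatives, among them those of the interferon (-0.32 to 0.20), basement membrane and integrin (-0.26 to 0.18) and VEGF and angiopoietin lists (-0.09 to 0.41). The cause of these shifts was not tested. Depth limits most genes: 3 UMIs in a library are 0.987 CPM.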
